A study of Mus musculus with 8 samples.

Results

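The genes described here are induced by type I interferons and were followed in the retina of mice given MPTP, a neurotoxin whose metabolite MPP+ is taken up by the dopamine transporter and blocks complex I of the mitochondrial respiratory chain. The list holds 41 interferon-induced genes, and 37 of them had a probe set that names 1 gene in the authors' table. Keeping only such probe sets left 19938 genes to test. The list was chosen with earlier results of these data known, so its counts beside the share of all genes are descriptions. Where a gene had several such probe sets, the brightest was used. Another 3 listed genes lie only on probe sets that also name a second gene and are not described by gene, and Ifi44 was not analysed here. The retinas came from male C57BL/6 mice, 6 weeks of age at the outset, which received saline or MPTP at a dose not given in the sources used here. They were collected 7 days (1 week) or 28 days (4 weeks) into the experiment, which makes 4 groups: saline at 1 week, MPTP at 1 week, saline at 4 weeks and MPTP at 4 weeks. The labels name no transgene or deletion. Each group had 6 mice, and each of its 2 arrays received the RNA of 4 pooled retinas, so 8 of the 12 retinas of a group were measured. Whether different mice went into the pools of one group is not stated, so the p-values measure only the spread between arrays, which may be technical.

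Type I interferons are a family of secreted proteins that bind the IFNAR1 and IFNAR2 receptor chains on almost every cell. The receptor activates JAK kinases, which phosphorylate STAT proteins such as STAT2, and these join IRF9 to form a complex that binds a DNA element called the interferon-stimulated response element (ISRE) in the promoters of its target genes. The products of those targets cut, bind or trap viral RNA, block the entry of viruses into cells, or raise the level of the pathway's own sensors and transcription factors. In the retina and brain, such genes are expressed at a low level without infection, and microglia, Mueller glia, endothelium and neurons can all raise them.

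Signal is given in log2 units as the authors' normalization (RMA) left it, and a difference of 1 is a doubling. The arrays carried the retinal markers: the mean signal of the rod genes measured was 11.40 to 11.53 on the 8 arrays and that of the cone genes 9.93 to 10.22, and 12 microglial genes averaged 6.42 to 6.61 and 9 blood leukocyte genes 5.66 to 5.84. Over all genes, a main component with 38.3% of the variance set array 2 of saline at 1 week and array 1 of MPTP at 1 week apart from the other 6 arrays, so results at 1 week are also given without these 2 arrays. In pooled tissue, a change in the number of cells of a type and a change in RNA per cell cannot be told apart. The table holds no detection calls, so a low signal cannot be read as absence, and signals of different probe sets are not compared with each other.

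The promoters show what these genes share apart from the measured signal. RefSeq windows from 250 bases before to 50 bases after the start of transcription (mouse build GRCm38.p6) were available for 31 of the 41 genes, and were searched on both strands for the core of the ISRE, which reads GAAA, then any 2 bases, then GAAA. The core was found in 19 of 31 genes (61.3%), against 1079 of 27025 genes with a window (3.99%). Of the measured genes with a window, 16 of 27 (59.3%) held it. A second element, the gamma-activated site TTCNNNGAA (N is any base) of interferon gamma responses, was found in 9 of 31 (29.0%), against 9.55% of all genes. A match of this site can share bases with a match of the ISRE core. A match is a description of the letters only, and was not tested for binding.

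Among the genes with a window, Ifi203, Xaf1, Ifit1 and Oasl2 had the smallest unadjusted p-values for MPTP at 1 week. The bases before the start are shown for the last 3, and Ifi203 follows with a shorter stretch. The 250 bases before the start of Ifit1 lie at chr19:34640639-34640888 on the plus strand, those of Xaf1 at chr11:72301379-72301628 on the plus strand, and those of Oasl2 at chr5:114896684-114896933 on the plus strand. Capitals mark the ISRE core, which is read here on the opposite strand as TTTC, any 2 bases, TTTC. Ifit1 held 2 cores, and no core was found in the windows of Xaf1 or Oasl2.
Ifit1: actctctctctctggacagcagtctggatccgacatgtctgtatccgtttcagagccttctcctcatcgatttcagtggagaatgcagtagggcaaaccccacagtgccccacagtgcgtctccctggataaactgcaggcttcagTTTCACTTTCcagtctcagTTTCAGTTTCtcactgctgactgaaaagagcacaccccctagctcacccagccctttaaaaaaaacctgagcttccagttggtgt
Xaf1: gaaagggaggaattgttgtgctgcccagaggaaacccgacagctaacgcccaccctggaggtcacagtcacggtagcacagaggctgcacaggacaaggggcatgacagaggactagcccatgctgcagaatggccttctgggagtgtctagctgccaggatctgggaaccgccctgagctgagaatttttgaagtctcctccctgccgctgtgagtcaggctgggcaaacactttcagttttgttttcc
Oasl2: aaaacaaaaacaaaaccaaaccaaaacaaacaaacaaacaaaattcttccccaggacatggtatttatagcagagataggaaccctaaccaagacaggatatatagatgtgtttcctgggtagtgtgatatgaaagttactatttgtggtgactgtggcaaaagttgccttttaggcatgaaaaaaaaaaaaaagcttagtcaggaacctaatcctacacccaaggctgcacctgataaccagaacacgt

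Shorter stretches of 60 bases with the core in capitals are given for 3 genes whose signal stood higher in MPTP retinas at 1 week and, for contrast, for 2 genes that hold the core and differed little. They lie at chr19:34583365-34583424 (plus strand, Ifit3), chr19:34607761-34607820 (plus strand, Ifit3b), chr1:173942493-173942552 (minus strand, Ifi203), chr12:26456538-26456597 (minus strand, Rsad2) and chr11:48871421-48871480 (minus strand, Irgm1). The stretches of Ifit3 and Ifit3b had 0 mismatches, and their windows shared a run of 169 identical bases. Ifi203 has 2 starts in the table, of which 1 had a core in its window. The cores of Irgm1 overlap each other.
Ifit3: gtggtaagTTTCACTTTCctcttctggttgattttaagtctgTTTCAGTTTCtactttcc
Ifit3b: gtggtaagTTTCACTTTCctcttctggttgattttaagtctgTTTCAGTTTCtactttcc
Ifi203: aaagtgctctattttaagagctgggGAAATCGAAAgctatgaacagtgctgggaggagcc
Rsad2: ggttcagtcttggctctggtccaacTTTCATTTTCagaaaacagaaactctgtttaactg
Irgm1: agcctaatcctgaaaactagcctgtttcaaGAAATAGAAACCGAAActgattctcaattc

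MPTP was compared with saline at 1 week to describe the early response. Rtp4, Ifi203 and Xaf1 had higher signal in MPTP retinas and Gbp4 lower signal, each at an unadjusted p under 0.05. Ifit1, Ifit3, Ifitm3 and Oasl2 also stood higher, by 0.43 to 0.61, but with wider errors. No gene of the list passed the adjusted threshold of limma with Benjamini-Hochberg adjustment over all genes, where the smallest adjusted p of a listed gene was 1.00. In all, 24 of the 37 stood above 0 and 13 below, with a median difference of 0.08 (all genes -0.01, with 46.9% above 0). The 3 higher genes at unadjusted p under 0.05 compare with 1.87% of all genes, and the 1 lower gene with 2.36%. Both MPTP arrays were above both saline arrays for 14 of 37 genes (12.5% of all genes) and below for 2 (13.8%). The differences were within 0.2 of 0 for 23 of the 37, and standard errors ran from 0.09 to 0.32.

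**Figure D1:**
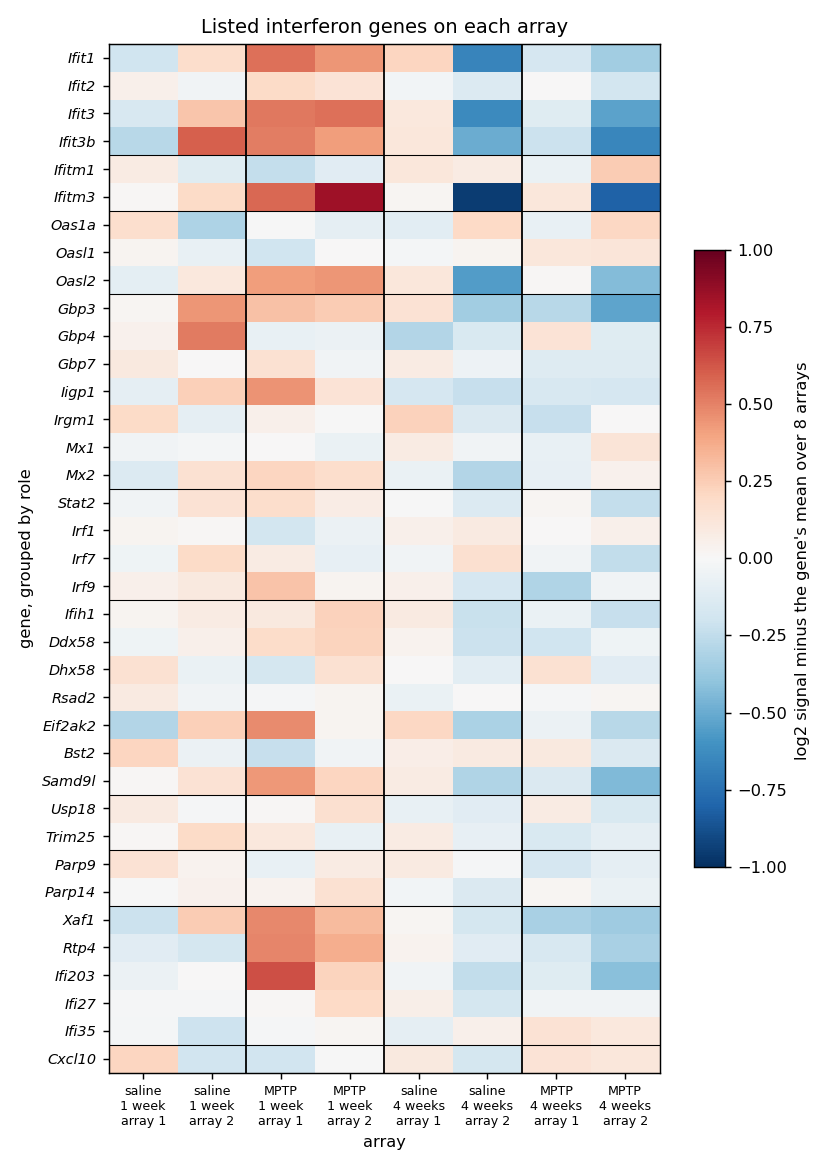
Signal of the 37 measured interferon genes on each of the 8 arrays, as log2 signal minus the gene's own mean over the arrays, with the colour scale limited to 1 above and 1 below that mean. Ifit1, Ifit2, Ifit3, Ifitm3, Oasl2, Xaf1, Rtp4 and Ifi203 are brightest on the MPTP arrays of 1 week, and array 2 of both groups at 4 weeks is lowest for many genes.

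Rtp4, a chaperone that brings receptors to the cell surface and restricts viral replication, had the smallest p-value of the list at 1 week. Rtp4 read 6.48 and 6.42 in saline and 7.08 and 6.96 in MPTP retinas at 1 week, and 6.63 and 6.48 in saline and 6.44 and 6.27 in MPTP retinas at 4 weeks. Both MPTP arrays of 1 week were above all other 6 arrays, and the groups at 4 weeks lay in the opposite order without overlap. The difference at 1 week was 0.57 ± 0.10 (SE of the fit, 2 arrays a group; unadjusted p = 0.000234), and it was 0.50 to 0.63 when any single array was left out. At 4 weeks it was -0.20 ± 0.10 (unadjusted p = 0.0763).

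Xaf1, an antagonist of inhibitors of apoptosis that interferon induces, read 6.92 and 7.39 in saline and 7.62 and 7.45 in MPTP retinas at 1 week. At 4 weeks Xaf1 read 7.16 and 6.96 in saline and 6.82 and 6.78 in MPTP retinas. The 1 week saline arrays were 0.47 apart, and array 2 of saline lay just under the lower MPTP array. The difference was 0.38 ± 0.15 at 1 week (unadjusted p = 0.0264) and -0.26 ± 0.15 at 4 weeks. Without array 1 of saline the 1 week difference was 0.15, and without array 2 it was 0.61.

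Ifi203, a DNA-binding protein of the PYHIN family that senses nucleic acid, read 5.79 and 5.86 in saline and 6.50 and 6.08 in MPTP retinas at 1 week. Its 4 week values were 5.82 and 5.61 in saline and 5.74 and 5.44 in MPTP retinas. Both MPTP arrays of 1 week were above the other 6. The difference was 0.46 ± 0.15 at 1 week (unadjusted p = 0.0121) and -0.13 ± 0.15 at 4 weeks, and without array 1 of MPTP the 1 week difference was 0.25. Ifi27, a small mitochondrial membrane protein, and Ifi35, a leucine zipper protein released in inflammation, stood 0.11 ± 0.11 and 0.12 ± 0.10 higher at 1 week. With these, all 5 of the measured genes in this mixed group were above 0 (46.9% of all genes) and without overlap (12.5%) at 1 week. At 4 weeks 2 of the 5 were above 0.

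The IFIT proteins bind viral RNA that lacks the host's cap methylation and block its translation. Ifit1 read 6.82 and 7.20 in saline and 7.57 and 7.46 in MPTP retinas at 1 week, and 7.23 and 6.36 in saline and 6.85 and 6.67 in MPTP retinas at 4 weeks. Ifit3, which stabilises the complex of IFIT proteins, read 7.57 and 8.01 in saline and 8.26 and 8.29 in MPTP retinas at 1 week. At 4 weeks Ifit3 read 7.84 and 7.10 in saline and 7.61 and 7.20 in MPTP retinas. For both genes the MPTP arrays of 1 week were the highest of the 8, and at 4 weeks the saline arrays spanned the MPTP arrays.

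Ifit3b, a close copy of Ifit3, read 6.21 and 7.08 in saline and 7.00 and 6.91 in MPTP retinas at 1 week. Its values at 4 weeks were 6.60 and 5.99 in saline and 6.27 and 5.83 in MPTP retinas. Here array 2 of saline at 1 week was the highest of all, so the groups overlapped. Ifit2, the family member tied to apoptosis of infected cells, read 7.19 and 7.11 in saline and 7.33 and 7.28 in MPTP retinas at 1 week, and 7.11 and 7.01 in saline and 7.15 and 6.96 in MPTP retinas at 4 weeks. The MPTP arrays of 1 week were the highest for Ifit2 too, within a narrow range.

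All 4 IFIT genes stood above 0 at 1 week, with a median of 0.39. The difference was 0.51 ± 0.23 for Ifit1 (unadjusted p = 0.0559), 0.48 ± 0.23 for Ifit3 (unadjusted p = 0.0637), 0.31 ± 0.27 for Ifit3b and 0.16 ± 0.10 for Ifit2. Without array 1 of saline at 1 week these differences were 0.32 for Ifit1, 0.26 for Ifit3 and -0.13 for Ifit3b, so the direction of Ifit3b turned. Without array 2 of saline they were 0.70, 0.70 and 0.74. At 4 weeks the 4 genes stood between -0.25 and -0.01, with a median of -0.05. Whether the probe sets of Ifit3 and Ifit3b tell these transcripts apart was not tested.

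Ifitm3, a membrane protein that stops viruses in endosomes, read 8.58 and 8.76 in saline and 9.14 and 9.41 in MPTP retinas at 1 week. At 4 weeks it read 8.59 and 7.62 in saline and 8.68 and 7.75 in MPTP retinas. The MPTP arrays of 1 week were the highest, and at 4 weeks array 2 lay almost 1 unit under array 1 in both groups. The difference was 0.61 ± 0.32 at 1 week (unadjusted p = 0.0878) and 0.11 ± 0.32 at 4 weeks. Ifitm1, the form at the cell surface, read 7.57 and 7.37 in saline and 7.25 and 7.38 in MPTP retinas at 1 week, and 7.60 and 7.57 in saline and 7.42 and 7.74 in MPTP retinas at 4 weeks. The groups of Ifitm1 overlapped at both times, and its differences were -0.16 ± 0.12 and -0.00 ± 0.12.

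The OAS enzymes make 2-5A oligomers that switch on RNase L, and the OAS-like proteins amplify RNA sensing or, as Oasl1 does, hold back Irf7. Oasl2 read 7.63 and 7.83 in saline and 8.15 and 8.17 in MPTP retinas at 1 week, and 7.84 and 7.17 in saline and 7.73 and 7.30 in MPTP retinas at 4 weeks. Its MPTP arrays of 1 week were the highest of the 8. The difference was 0.43 ± 0.20 at 1 week (unadjusted p = 0.0624) and 0.01 ± 0.20 at 4 weeks. Oas1a read 7.10 and 6.62 in saline and 6.92 and 6.83 in MPTP retinas at 1 week, and 6.82 and 7.12 in saline and 6.85 and 7.14 in MPTP retinas at 4 weeks. Its differences were 0.02 ± 0.17 at both times, and those of Oasl1 were -0.07 ± 0.10 and 0.12 ± 0.10.

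The interferon-induced GTPases attack the membranes around intracellular microbes. Gbp4 read 6.16 and 6.63 in saline and 6.04 and 6.05 in MPTP retinas at 1 week, and 5.82 and 5.96 in saline and 6.25 and 5.99 in MPTP retinas at 4 weeks. MPTP was below saline at 1 week and above it at 4 weeks, in both cases without overlap, and array 2 of saline at 1 week was the highest of the 8 arrays. The difference was -0.35 ± 0.15 at 1 week (unadjusted p = 0.0423) and 0.23 ± 0.15 at 4 weeks, and without that array the 1 week difference was -0.11. After quantile or cyclic loess normalization, 3 genes of the list were higher and 0 lower at unadjusted p under 0.05 at 1 week. Over all genes 2.51% were higher and 2.45% lower after quantile normalization, and 2.63% and 2.49% after cyclic loess.

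Gbp3, another guanylate-binding protein, read 6.24 and 6.66 in saline and 6.52 and 6.47 in MPTP retinas at 1 week, and 6.37 and 5.87 in saline and 5.94 and 5.70 in MPTP retinas at 4 weeks. The groups overlapped at both times; the differences were 0.04 ± 0.18 and -0.30 ± 0.18 (unadjusted p = 0.12 at 4 weeks). Without array 2 of saline the 4 week value was -0.55, and without array 1 it was -0.05. Iigp1, an immunity-related GTPase, read 5.19 and 5.52 in saline and 5.73 and 5.42 in MPTP retinas at 1 week, and 5.12 and 5.05 in saline and 5.12 and 5.12 in MPTP retinas at 4 weeks. Its differences were 0.22 ± 0.13 and 0.04 ± 0.13. At 1 week the 7 measured GTPases had a median of 0.01, with 4 above 0.

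The other 4 GTPases stood close to 0 at 1 week: Gbp7 stood at 0.01 ± 0.10, Irgm1, a regulator of autophagy, at -0.03 ± 0.14, Mx1 at -0.00 ± 0.10 and Mx2 at 0.18 ± 0.12. Mx1 and Mx2, whose products block influenza and other viruses in many mammals, are annotated as pseudogenes in the RefSeq table of the C57BL/6 genome. Mx1 read 4.76 to 4.96 over all arrays. Mx2 was without overlap and higher in MPTP at 1 week (5.45 and 5.74 in saline, 5.80 and 5.76 in MPTP retinas).

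Ifih1 (MDA5) and Ddx58 (RIG-I) detect viral RNA in the cytoplasm, and Dhx58 (LGP2) tunes them. Ddx58 read 7.04 and 7.13 in saline and 7.26 and 7.30 in MPTP retinas at 1 week, and 7.11 and 6.87 in saline and 6.88 and 7.03 in MPTP retinas at 4 weeks. Ifih1 read 6.99 and 7.04 in saline and 7.06 and 7.20 in MPTP retinas at 1 week, and 7.05 and 6.74 in saline and 6.90 and 6.73 in MPTP retinas at 4 weeks. Both sensors were highest on the MPTP arrays of 1 week, by small amounts. Their 1 week differences were 0.20 ± 0.11 for Ddx58 (unadjusted p = 0.0883) and 0.11 ± 0.12 for Ifih1, against -0.05 ± 0.14 for Dhx58.

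Samd9l, an antiviral factor that also restrains cell growth, read 5.93 and 6.06 in saline and 6.35 and 6.13 in MPTP retinas at 1 week, and 6.00 and 5.61 in saline and 5.77 and 5.48 in MPTP retinas at 4 weeks. Both of its MPTP arrays at 1 week were above the other 6, with differences of 0.24 ± 0.15 at 1 week and -0.18 ± 0.15 at 4 weeks. Eif2ak2, the kinase PKR that halts translation on double-stranded RNA, stood at 0.28 ± 0.22 and -0.11 ± 0.22. Rsad2 (viperin), which makes a nucleotide that stops viral polymerases, stood at -0.02 ± 0.09 and 0.03 ± 0.09, although the core shown above lies in its promoter window. Bst2 (tetherin), which holds budding viruses at the membrane, stood at -0.21 ± 0.12 and -0.10 ± 0.12.

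The transcription factors of the pathway stood close to 0 at 1 week, with 2 of 4 above it and a median of -0.01. Stat2 read 7.79 and 7.97 in saline and 8.00 and 7.90 in MPTP retinas at 1 week, and 7.82 and 7.69 in saline and 7.84 and 7.58 in MPTP retinas at 4 weeks. Irf9, the DNA-binding partner of the STATs, read 7.31 and 7.35 in saline and 7.54 and 7.28 in MPTP retinas at 1 week, and 7.31 and 7.09 in saline and 6.96 and 7.22 in MPTP retinas at 4 weeks. The groups of Stat2 and of Irf9 overlapped at both times. Irf7, the factor that amplifies interferon production, stood at -0.08 ± 0.12 and -0.20 ± 0.12, with both MPTP arrays at 4 weeks below the lower saline array, 1 of them barely. Irf1, which also answers to interferon gamma, stood at -0.14 ± 0.09 and -0.04 ± 0.09 and was the only listed gene with both MPTP arrays of 1 week below the other 6 (4.99% of all genes). A second, dimmer probe set of Irf1 stood at -0.01 and 0.14.

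The remaining genes concern the ubiquitin-like modifier ISG15, ADP-ribosylation and chemotaxis. Usp18, the protease that removes ISG15 and dampens the receptor, read 6.62 and 6.52 in saline and 6.54 and 6.69 in MPTP retinas at 1 week, and 6.46 and 6.42 in saline and 6.61 and 6.37 in MPTP retinas at 4 weeks. Parp9 read 5.76 and 5.66 in saline and 5.54 and 5.70 in MPTP retinas at 1 week, and 5.71 and 5.61 in saline and 5.45 and 5.53 in MPTP retinas at 4 weeks. Cxcl10, a chemokine for T cells, read 6.53 and 6.12 in saline and 6.11 and 6.30 in MPTP retinas at 1 week, and 6.41 and 6.13 in saline and 6.45 and 6.42 in MPTP retinas at 4 weeks. None of these genes separated the groups at 1 week. The differences at 1 and at 4 weeks were 0.05 ± 0.11 and 0.06 ± 0.11 for Usp18, -0.09 ± 0.10 and -0.16 ± 0.10 for Parp9, and -0.11 ± 0.14 and 0.16 ± 0.14 for Cxcl10. Trim25, the ubiquitin ligase that activates RIG-I, and Parp14 stood between -0.12 and 0.08 at both times.

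**Figure D2:**
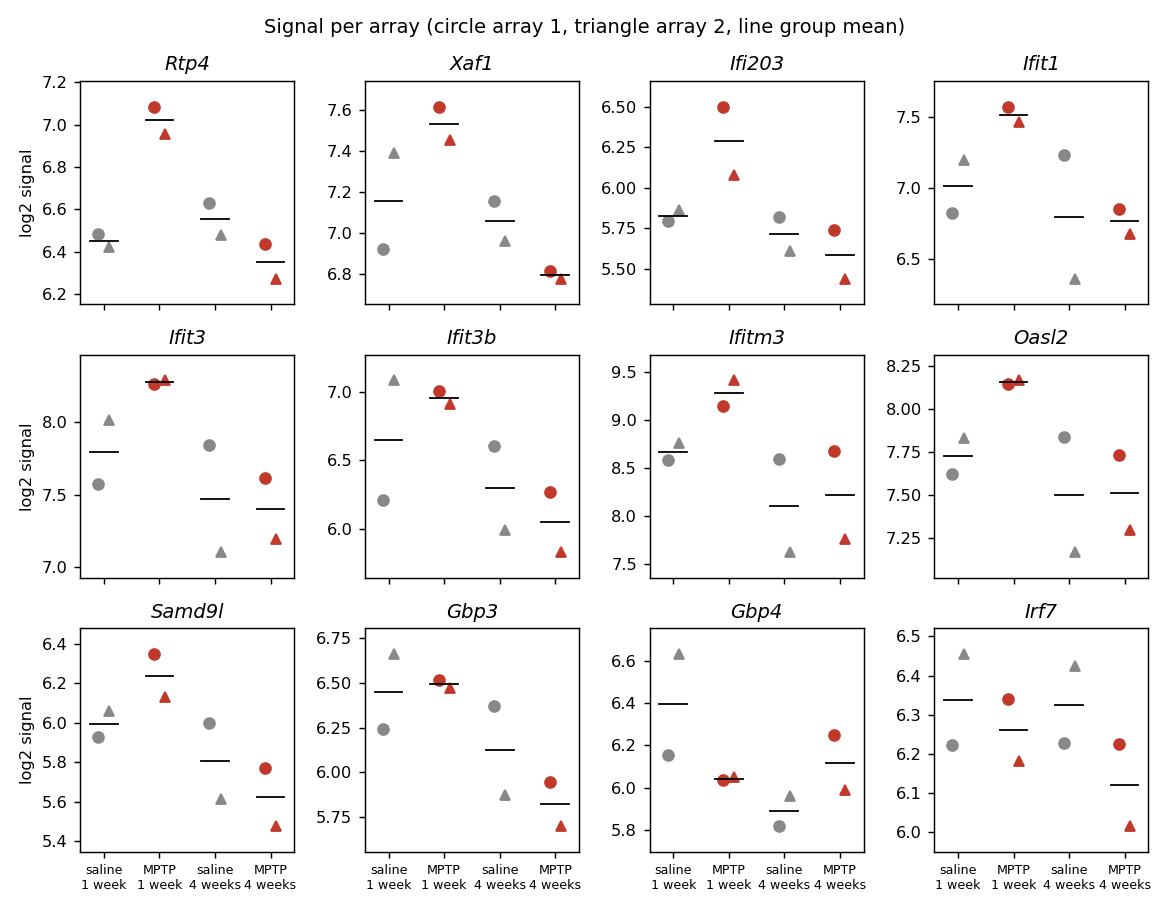
Log2 signal of 12 interferon genes on each array, with a circle for array 1, a triangle for array 2 and a line for the group mean, saline in grey and MPTP in red. Rtp4 read 6.96 and 7.08 in MPTP retinas at 1 week and at most 6.63 elsewhere, while Ifitm3 shows the gap between the arrays of a group at 4 weeks, 8.59 against 7.62 in saline and 8.68 against 7.75 in MPTP.

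Without both arrays that stand apart at 1 week, which leaves 1 array in each 1 week group and assumes that these vary like the other groups, the differences were 0.47 for Rtp4, 0.53 for Xaf1, 0.28 for Ifi203, 0.64 for Ifit1, 0.71 for Ifit3, 0.83 for Ifitm3, 0.54 for Oasl2 and -0.11 for Gbp4. The number of listed genes at unadjusted p under 0.05 moved with the arrays left out, and so did the share over all genes. It is therefore not given here for fits that leave 1 array in a group, and only its range with single arrays left out is given further below.

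MPTP was compared with saline at 4 weeks to describe the late response. No listed gene reached an unadjusted p under 0.05 at that time (1.10% of all genes higher, 0.813% lower), and none passed limma with Benjamini-Hochberg adjustment. The effect was positive for 15 of the 37 genes (51.8% of all genes) and negative for 22. Its median was -0.03 against 0.00 for all genes, and 32 lay within 0.2 of 0. The groups were without overlap for 5 genes that were higher (17.4% of all genes) and 6 that were lower (17.9%). Gbp3 had the lowest value, -0.30 ± 0.18, and Gbp4 the highest, 0.23 ± 0.15. Some listed genes reached an unadjusted p under 0.05 when a single saline array was left out, and the share over all genes moved too. Without array 1 of saline at 4 weeks the median was 0.06.

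Whether the late response differed from the early one was tested in the same limma fit, as the effect of MPTP at 4 weeks less that at 1 week. Rtp4, Xaf1 and Ifi203 had a lower effect in the late groups and Gbp4 a higher one, each at an unadjusted p under 0.05. These 3 lower genes compare with 0.537% of all genes, and the 1 higher gene with 1.42%. The difference was -0.77 ± 0.14 for Rtp4 (unadjusted p = 0.000329), -0.64 ± 0.21 for Xaf1 (unadjusted p = 0.011), -0.59 ± 0.21 for Ifi203 (unadjusted p = 0.0202) and 0.58 ± 0.21 for Gbp4 (unadjusted p = 0.0219). None passed the adjusted threshold. Rtp4 and Xaf1 were without overlap and higher at 1 week and lower at 4 weeks, as were 1.36% of all genes, and Gbp4 was the reverse, as were 1.67%. Over the list 12 genes stood above 0 (52.2% of all genes) and 25 below, with a median of -0.13 against 0.01 for all genes. After quantile normalization the split was 7 and 30, with 3 lower (1.13% of all genes) and 0 higher genes (1.24%) at unadjusted p under 0.05. With the values as deposited, the count of 4 moved when single arrays were left out, as did the share over all genes.

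**Figure D3:**
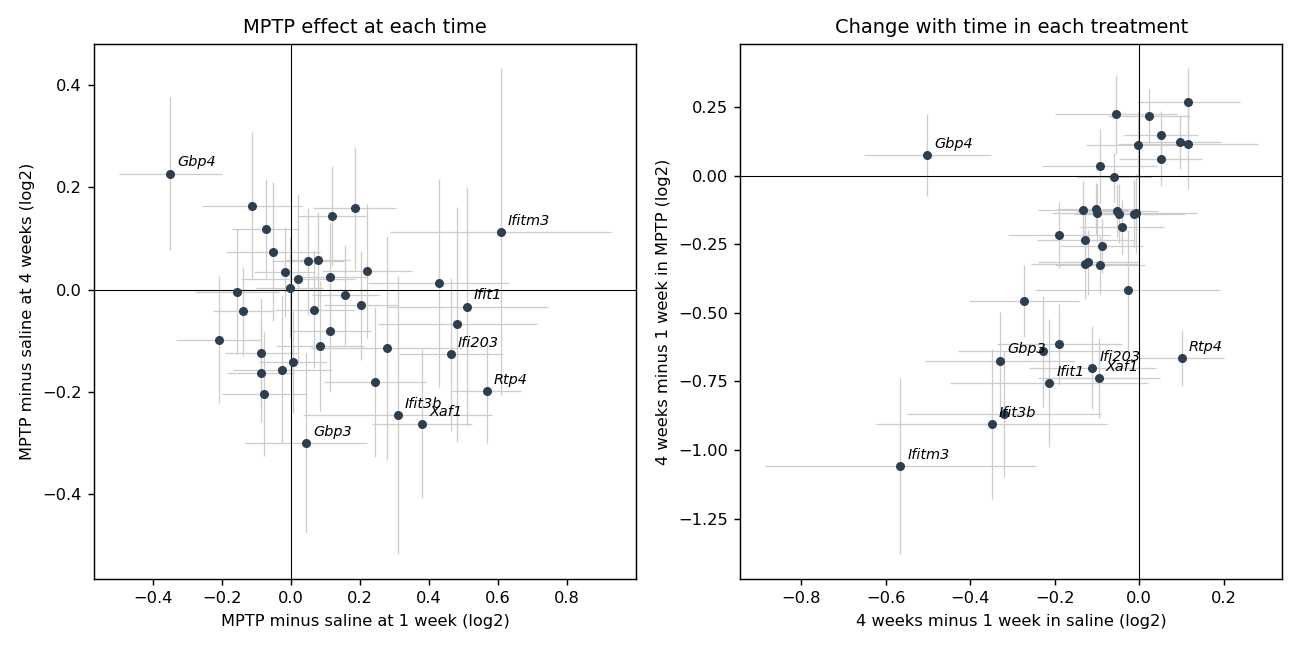
Left, the MPTP effect at 1 week (horizontal) against that at 4 weeks (vertical) for the 37 genes, in log2 units with standard errors; right, the change from 1 to 4 weeks in saline (horizontal) against that in MPTP retinas (vertical). Rtp4 lies at 0.57 and -0.20 on the left, and on the right Ifitm3 lies lowest, at -0.57 in saline and -1.06 in MPTP retinas. The 2 comparisons on the right share no arrays, but each shares arrays with those on the left.

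The change from 1 to 4 weeks was compared within each treatment. In saline retinas 30 of 37 genes stood below 0 and 7 above (50.6% of all genes above), with a median of -0.09 against 0.00 for all genes. Gbp4 was the 1 listed gene lower at unadjusted p under 0.05 (1.25% of all genes), at -0.50 ± 0.15 (unadjusted p = 0.00764), and 0 were higher (0.873%). Without array 2 of saline at 1 week Gbp4 stood at -0.26, and without array 1 at -0.74. The count at unadjusted p under 0.05 rose or fell when single arrays were left out, and the share over all genes moved too. The median was -0.19 without array 1 of saline at 4 weeks and -0.0025 without array 2.

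In MPTP retinas 15 of 37 genes were lower at 4 weeks than at 1 week at unadjusted p under 0.05 (4.36% of all genes lower) and 0 were higher (5.43%). The smallest adjusted p was 0.507 (limma with Benjamini-Hochberg adjustment), so none passed. Because the list was chosen with earlier results of these data known, its count beside the share of all genes is no independent test. The 15 were Ifitm3, all 4 IFIT genes, Xaf1, Ifi203, Gbp3, Rtp4, Oasl2, Samd9l, Iigp1, Ddx58, Irf9 and Ifih1. The medians over all 37 genes were -0.19 in MPTP retinas and -0.09 in saline. Over the list 27 genes stood below 0 and 10 above (53.3% of all genes above), against a median of 0.01 for all genes, and 23 were lower without overlap (21.5% of all genes) and 5 higher (22.8%). This comparison, the MPTP effect at 1 week and the difference of effects all use the MPTP arrays of 1 week.

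Ifitm3 was lower by the most, at -1.06 ± 0.32 (unadjusted p = 0.00811), a 4 week signal of 0.479 times that at 1 week. Ifit3b followed at -0.90 ± 0.27 (unadjusted p = 0.00798), Ifit3 at -0.87 ± 0.23 (unadjusted p = 0.00374) and Ifit1 at -0.76 ± 0.23 (unadjusted p = 0.00937). Rtp4 had the smallest p-value, at -0.67 ± 0.10 (unadjusted p = 6.56e-05), followed by Xaf1 at -0.74 ± 0.15 (unadjusted p = 0.000506) and Ifi203 at -0.70 ± 0.15 (unadjusted p = 0.000949). These last 3 genes also had the lowest difference of MPTP effects. In saline retinas Rtp4 stood at 0.10 ± 0.10, Xaf1 at -0.10 ± 0.15 and Ifi203 at -0.11 ± 0.15.

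The other GTPases and effectors of the 15 were Gbp3 at -0.67 ± 0.18, Oasl2 at -0.64 ± 0.20, Samd9l at -0.61 ± 0.15 and Iigp1 at -0.46 ± 0.13. The sensors Ddx58 (-0.33 ± 0.11) and Ifih1 (-0.32 ± 0.12), the factor Irf9 (-0.32 ± 0.13) and Ifit2 (-0.26 ± 0.10) had the smallest differences among them. Without array 2 of MPTP at 4 weeks Oasl2 stood at -0.42 and Ifit2 at -0.16, without array 1 of that group Irf9 stood at -0.19, and without array 1 of MPTP at 1 week Iigp1 stood at -0.30 and Irf9 at -0.19. Ifitm1 (0.27 ± 0.12, unadjusted p = 0.0526) and Oasl1 (0.22 ± 0.10, unadjusted p = 0.0501) were among those above 0. The ISRE core was in the promoter window of 8 of the 13 genes with a window among the 15, and of 8 of 14 among the others.

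For all 15 genes array 2 of saline at 4 weeks was below array 1, by a median of 0.31, and the same order was seen in MPTP for 13 of 15. In 13 genes of the list both second arrays of 4 weeks were below the other 6 arrays, as in 5.67% of all genes, and in 12 both MPTP arrays of 1 week were above the other 6 (6.24%). Without array 2 of MPTP at 4 weeks the difference over time was -0.60 for Ifitm3, -0.66 for Ifit3, -0.69 for Ifit3b, -0.72 for Xaf1 and -0.59 for Rtp4. Fewer listed genes were then at unadjusted p under 0.05. Irf9 (-0.46) and Ddx58 (-0.40) stood lower without that array than with it. Array 1 of MPTP at 4 weeks, left out instead, gave -1.52 for Ifitm3. The labels give no meaning to the array numbers, and whether the low second arrays share a batch was not tested.

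Over both times, with time as a term in the limma fit, 0 of the listed genes reached an unadjusted p under 0.05 in either direction (2.30% of all genes higher, 2.47% lower). The list stood 25 above (49.0% of all genes) and 12 below 0 with a median of 0.02, and 0 genes separated all 4 MPTP arrays from all 4 saline arrays (1.01% of all genes higher, 1.49% lower). Some listed genes reached an unadjusted p under 0.05 when a single array was left out, and the share over all genes moved too. Ifitm3 stood at 0.36 ± 0.23, Ifit1 at 0.24 ± 0.18, Rtp4 at 0.18 ± 0.13 and Mx2 at 0.17 ± 0.08 (unadjusted p = 0.0556). The highest of the 8 signals fell on an MPTP array of 1 week for 20 of 37 listed genes (54.1%), against 29.0% of all genes. The lowest fell on an array 2 of 4 weeks for 22 of 37 (59.5%), against 20.3%.

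The spread within groups was wider for the list than for all genes at 4 weeks. The median absolute gap between the arrays of a group was 0.20 in saline and 0.20 in MPTP retinas at 4 weeks, against 0.08 and 0.10 for all genes. At 1 week it was 0.18 in saline and 0.13 in MPTP retinas, against 0.14 and 0.12. The median signal of the list, taken as each gene's deviation from its own mean, was 0.01 and 0.04 on the saline arrays of 1 week and 0.10 and 0.14 on the MPTP arrays. At 4 weeks it was 0.05 and -0.14 in saline and -0.07 and -0.13 in MPTP retinas. The MPTP arrays of 1 week were the highest of the 8 on this measure, and array 1 of saline at 4 weeks lay above both saline arrays of 1 week.

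**Figure D4:**
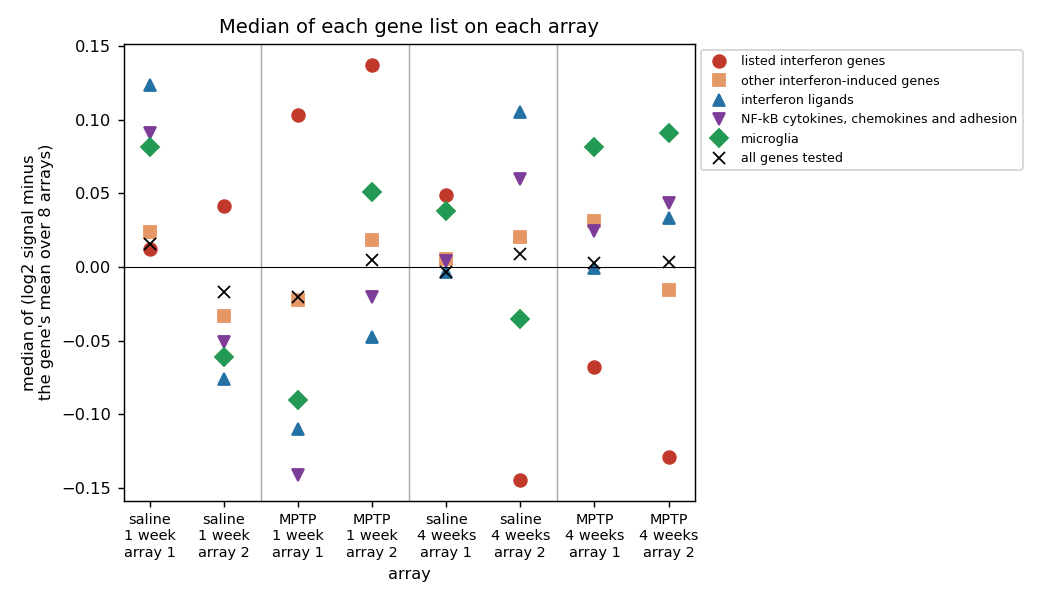
Median deviation from each gene's own mean for 5 gene lists and for all genes tested, in log2 units, on each of the 8 arrays. The listed interferon genes reach 0.14 on array 2 of MPTP at 1 week and -0.14 on array 2 of saline at 4 weeks, and the other interferon-induced genes stay between -0.03 and 0.03.

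The pathway around these genes was followed in 7 further lists. Of the interferon genes themselves, 16 of 21 were measured. At 1 week 2 were lower in MPTP retinas at unadjusted p under 0.05 (2.36% of all genes) and 0 higher (1.87%). Ifna12 read 5.83 and 5.78 in saline and 5.39 and 5.06 in MPTP retinas at 1 week, and 5.53 and 5.72 in saline and 5.42 and 5.57 in MPTP retinas at 4 weeks, so the groups did not overlap at 1 week (-0.58 ± 0.12, unadjusted p = 0.000861). Ifna16 stood at -0.37 ± 0.14 at 1 week, and Ifna13 at 0.41 ± 0.14 at 4 weeks. Ifnb1, the interferon that most cells make at the start of a response, read 5.56 and 5.20 in saline and 5.10 and 5.27 in MPTP retinas at 1 week, and stood at -0.19 ± 0.13. The interferon alpha genes are near copies of each other, so the probe sets may share targets, which was not tested.

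Ifnar1 stood at 0.14 ± 0.09 at 1 week and -0.02 ± 0.09 at 4 weeks, and Ifnar2 at 0.07 ± 0.10 and 0.06 ± 0.10. In the list of receptors and JAK-STAT signalling 15 of 16 genes were measured. Il10rb, a receptor chain shared by interleukin 10 and interferon lambda, was higher at 1 week (0.27 ± 0.09) and Irf2 lower at 4 weeks (-0.24 ± 0.10). Each was at unadjusted p under 0.05, as were 1.87% of all genes higher at 1 week and 0.813% lower at 4 weeks. Among 12 of 15 genes of nucleic acid sensing, Tlr3, the endosomal receptor for double-stranded RNA, read 6.72 and 6.52 in saline and 6.98 and 6.99 in MPTP retinas at 1 week, and 6.68 and 6.66 in saline and 6.88 and 6.60 in MPTP retinas at 4 weeks. The Tlr3 groups did not overlap at 1 week, with a difference of 0.36 ± 0.11 (unadjusted p = 0.00961). Tlr3 was the 1 gene of these 12 that was higher at unadjusted p under 0.05 at 1 week (1.87% of all genes). In this list 2 genes were higher without overlap (12.5% of all genes), 7 stood above 0 and 5 below, and the median was 0.02.

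A further 62 of 76 interferon-induced genes outside the list were measured. At 1 week 4 were higher at unadjusted p under 0.05 (1.87% of all genes) and 0 lower (2.36%). Of the 62 genes, 28 stood above 0 (46.9% of all genes) and 34 below, with a median of -0.01. The 4 were Slfn8 (0.41 ± 0.12), Trim12a (0.30 ± 0.13), Oas1b (0.29 ± 0.11) and Parp12, an antiviral ADP-ribosyltransferase (0.26 ± 0.10). Parp12 read 7.19 and 7.23 in saline and 7.43 and 7.52 in MPTP retinas at 1 week, and 7.34 and 7.15 in saline and 7.14 and 7.23 in MPTP retinas at 4 weeks. Slfn8 read 4.92 and 4.65 in saline and 5.13 and 5.26 in MPTP retinas at 1 week. From 1 to 4 weeks in MPTP retinas 6 of the 62 were lower (4.36% of all genes) and 3 higher (5.43%) at unadjusted p under 0.05, with a median of 0.03. The lowest signal fell on an array 2 of 4 weeks for 12 of these 62 genes (19.4%), against 20.3% of all genes. The highest fell on an MPTP array of 1 week for 20 (32.3%), against 29.0%.

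MHC class I and immunoproteasome genes, which present antigen and also answer to interferon, had 0 of 11 measured genes at unadjusted p under 0.05 at either time, with medians of -0.03 at 1 week and 0.07 at 4 weeks. For MHC class II it was 0 of 6 genes. Over all genes 1.87% were higher and 2.36% lower at 1 week, and 1.10% and 0.813% at 4 weeks. At such shares, lists this small would rarely hold a gene at that threshold. Of 16 genes of NF-kB signalling, Tnf (-0.33 ± 0.11) and Ccl3 (-0.23 ± 0.09) were lower in MPTP retinas at 1 week at unadjusted p under 0.05 (2.36% of all genes). Of the same list 0 were higher (1.87%), and the median was -0.06.

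Markers of other cells were read beside these results. At 1 week 6 of 12 microglial genes stood above 0 (46.9% of all genes), with a median of -0.02. The mean log2 signal over the list was 6.42 to 6.60 in saline and 6.42 to 6.55 in MPTP retinas. From 1 to 4 weeks in MPTP retinas 11 of 12 microglial genes stood above 0 (53.3% of all genes), with a median of 0.11, while most of the interferon list stood below 0. Blood leukocyte genes ranged from 5.68 to 5.82 in saline and from 5.66 to 5.72 in MPTP retinas at 1 week, with 4 of 9 above 0. Lens genes, which mark tissue carried over in dissection, stood above 0 at 1 week in 10 of 10, with a median of 0.12; their mean was 7.32 to 7.36 in saline and 7.03 to 8.03 in MPTP retinas, so array 1 of MPTP was the lowest and array 2 the highest. Genes of the pigment epithelium were likewise lowest on array 1 of MPTP at 1 week (6.76) and highest on array 2 (7.40). Among the 15 genes lower over time in MPTP retinas, array 2 of MPTP at 1 week less array 1 ranged from -0.42 (Ifi203) to 0.27 (Ifitm3). Amacrine and horizontal cell genes stood above 0 at 1 week in 5 of 6, with a median of 0.12. All 5 were without overlap, against 12.5% of all genes. The mean of this list was 8.15 and 8.17 on the MPTP arrays of 1 week and 8.04 to 8.08 on the other 6. Mueller glia genes averaged 9.25 and 9.23 on the MPTP arrays of 1 week, against 9.36 and 9.43 in saline, with 3 of 4 below 0. The differences of these genes ran from -0.52 to 0.01 with a median of only -0.05, so the fall was not even across them. From 1 to 4 weeks 5 of 5 cone genes were lower without overlap in both treatments, with medians of -0.17 in saline and -0.23 in MPTP retinas. Over all genes 15.1% were lower without overlap in saline and 21.5% in MPTP retinas. The part of these cell types in the interferon results was not tested.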

How the data were processed

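Gene expression was measured on 8 Affymetrix arrays of mouse retina, with 2 arrays in each of 4 groups. The deposited log2 values are the authors' output of RMA in Affymetrix Expression Console, as the submitters' processing notes name them. Their versions are not given in the sources. RMA normalizes across arrays, so a shift shared by most genes is removed. Per the labels' protocols, 100 ng of total RNA went through SPIA amplification and biotin labelling. Scan batches were not analysed here, and the small number of arrays limits the precision.

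Of 28944 probe sets, 23410 are annotated: 21789 name 1 gene and 1621 several, while 5534 have no gene entry. Probe sets that name 1 gene were used, with the highest mean per gene, which left 19938 genes without a filter on dim signal. A linear model per gene (limma 3.58.1 in R 4.3.3; lmFit, contrasts.fit, eBayes; two-sided tests) was fitted with group means estimated from all 8 arrays (4 residual degrees of freedom), or with treatment and time as additive terms (5 residual degrees of freedom). Errors are standard errors of that fit. Benjamini-Hochberg adjustment covered all genes in each of the 6 comparisons, with a threshold of 0.05; counts at an unadjusted p under 0.05 are descriptions. The fit was also run on simulated data with independent noise and planted changes larger than any MPTP difference of the listed genes. That run does not cover smaller changes or gaps that many genes share on an array.

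The interferon genes and the other lists were chosen with earlier results of these data known. Signal on every array is given for listed genes at unadjusted p under 0.05 in any comparison or with a difference of at least 0.3 at 1 or 4 weeks, and for the earliest listed gene of each role. From each pathway list, genes at unadjusted p under 0.05 for MPTP at 1 or 4 weeks or for their difference are named, up to the 5 smallest, with Ifnb1, Ifnar1 and Ifnar2 in any case. Alternatives were quantile and cyclic loess normalization, centring on the array median, genes above percentile 50 of signal, averaging the probe sets of a gene, a fit of only the groups compared, eBayes with a trend and robust estimates, a replicate block, the 2 arrays that stand apart left out, and each array left out.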

Additional observations from a re-analysis of the deposited data

Results flagged for a closer look

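For 3 genes the MPTP effect lay in opposite directions at 1 and at 4 weeks, with no overlap between MPTP and saline arrays at either time. Over all genes, 1.36% were higher at 1 week and lower at 4 weeks in this way, and 1.67% were the reverse. The 3 genes were flagged from the same arrays that give their p-values, so those p-values are descriptions. The effect at 4 weeks minus that at 1 week was -0.77 for Rtp4, -0.64 for Xaf1 and 0.58 for Gbp4. The test of that difference in limma gave unadjusted p-values of 0.000329, 0.011 and 0.0219 and, with Benjamini-Hochberg adjustment over all genes, an adjusted p of 1.00 for each, so none passed. Rtp4 kept the value best when arrays were left out, from -0.85 to -0.69, while Xaf1 ranged from -0.88 to -0.41 and Gbp4 from 0.34 to 0.81.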

How the results depend on the processing

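Of 499 alternative values of 30 single-gene results, 498 kept their direction and 1 reversed. That was Ifit3b at 1 week without array 1 of saline at 1 week (-0.13, against 0.74 without array 2). Many settings cannot change a log2 difference, such as the replicate block, the trend and robust estimates, or an array left out of a group not compared. The genes were also picked by their values in these data, so this count is a description and no measure of robustness. No listed gene passed the adjusted threshold in any setting. The count at unadjusted p under 0.05 at 1 week (4) was 7, all higher, in the fit of only the groups compared (1.02% of all genes higher, 1.37% lower). At 4 weeks (0) it was 1, lower in MPTP, under quantile normalization (1.39% of all genes lower), cyclic loess normalization (1.28%) and the fit of only the groups compared (1.93%). For the difference (4) it was 1, lower, of the 13 listed genes above the median signal, against 0.903% of all genes above it. That filter drops Rtp4, Ifi203 and Gbp4. In saline over time (1) it was 0 of the 13 above the median signal (2.69% of all genes above it lower, 0.371% higher). Over both times (0) it was 1, higher, under quantile normalization (3.2% of all genes higher) and cyclic loess normalization (3.27%). Over all genes, 1 passed the adjusted threshold over time in MPTP with the arrays apart left out, against 0 otherwise in that comparison except when 1 array was left out (0 to 1). The median among the 13 listed genes above the median signal was 0.16 at 1 week and -0.32 over time in MPTP. With each array left out in turn, the counts ranged from 1 to 9 at 1 week, 0 to 3 at 4 weeks, 2 to 10 for the difference, 0 to 6 in saline over time, 9 to 17 in MPTP over time and 0 to 5 over both times, and the medians from 0.06 to 0.11, -0.107 to 0.0599, -0.21 to -0.0396, -0.19 to -0.0025, -0.24 to -0.17 and 0.01 to 0.08. The counts with an array left out pool higher and lower genes, and each such fit leaves 1 array in a group. The share over all genes moved in the same fits, so these ranges only describe the settings and are no measure of the list against all genes. Deviations of same-numbered arrays correlated between -0.38 and 0.21. With 2 arrays a group, this cannot decide whether the numbers pair the samples. A fit with the number as a replicate block gave 3 higher genes at 1 week (1.6% of all genes) and 15 lower in MPTP over time (3.47%). For the difference it gave 4 lower (0.456%) and 1 higher (1.18%). With the numbers exchanged in MPTP at 1 week, chosen after seeing the data, it gave 5 higher (2.09%) and 1 lower (2.66%) at 1 week.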

Other observations

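The 3 listed genes on probe sets that name a second gene cannot be read alone. Those probe sets differed between MPTP and saline by -0.24, -0.03 and 0.10 at 1 week. A second probe set of Ifitm1, dimmer than the one used, stood at 0.17 at 1 week and 0.14 at 4 weeks, where the brighter one stood at -0.16 and -0.00.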
